A study of Mus musculus with 8 samples.

Results

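The 10 genes described here make glutathione or are known targets and regulators of the transcription factor NRF2: Gclc, Gclm, Slc7a11, Hmox1, Nqo1, Txnrd1, Srxn1, Gsr, Nfe2l2 and Keap1. They were taken by name from the 32249 genes listed in the series, to set Gclc, which was lower in macrophages given the protein CYR61, beside the other targets. The members were thus chosen by their CPM (UMIs, or tagged RNA molecules, per 1000000 UMIs of the library) in CYR61 against control libraries, and their values in that contrast are given below as a description, with no test. HIVE, a microwell method that captures single cells and tags each RNA molecule, was applied to bone marrow of mice of strain C57Bl/6J, aged 10 weeks and male by their labels. Marrow cells of all groups were grown for 3 days with M-CSF, the growth factor of macrophages, and then kept for 24 h without (control, 4 libraries) or with 4 µg/mL CYR61 (4 libraries). CYR61, the product of Ccn1, is a secreted matrix protein and a ligand of integrins. Nothing in the labels tells if replicates came from separate animals or cultures, so the p-values below measure the spread between libraries, which may be technical.

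Glutathione is a tripeptide of glutamate, cysteine and glycine, and is the most abundant small thiol that cells use against oxidants. The transporter xCT, encoded by Slc7a11, brings in cystine. The ligase that joins glutamate to cysteine consists of a catalytic subunit (Gclc) and a modifier subunit (Gclm), and Gsr returns the oxidised form to the reduced one. NRF2, encoded by Nfe2l2, is held in the cytoplasm and handed to the proteasome by KEAP1 until oxidants or electrophiles modify KEAP1. It then enters the nucleus and, with a small MAF protein, binds the antioxidant response element near genes such as Gclm, Hmox1, Nqo1, Txnrd1 and Srxn1. In macrophages the pathway is known for its part in haem breakdown, cystine uptake and the restraint of inflammatory genes.

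Promoter sequences are shown for Gclm and Slc7a11, which moved together across libraries, and for Txnrd1, the member that differed between cells of the same library. They are the 250 bases before the RefSeq start, on the GRCm38.p6 build and the gene's strand. RefSeq windows were matched for 7 of the 10 members, and not for Gclc, Hmox1 and Gsr. Capitals mark TGACNNNGC, the core of the antioxidant response element, or TGATGCAA, a form of the CEBP and ATF4 composite site that was chosen after the sequences were read, either one on either strand.
Gclm, chr3:122245307-122245556, plus strand: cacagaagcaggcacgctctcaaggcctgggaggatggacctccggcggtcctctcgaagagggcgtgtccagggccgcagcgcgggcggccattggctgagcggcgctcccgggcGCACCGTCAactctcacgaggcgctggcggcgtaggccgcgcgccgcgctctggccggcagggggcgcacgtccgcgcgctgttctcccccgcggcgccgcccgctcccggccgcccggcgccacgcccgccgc
Slc7a11, chr3:50443614-50443863, minus strand: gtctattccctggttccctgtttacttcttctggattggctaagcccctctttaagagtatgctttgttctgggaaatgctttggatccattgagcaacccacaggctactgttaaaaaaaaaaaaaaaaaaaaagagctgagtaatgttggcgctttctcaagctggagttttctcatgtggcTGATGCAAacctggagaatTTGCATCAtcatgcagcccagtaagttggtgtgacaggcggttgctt
Txnrd1, chr10:82858956-82859205, plus strand, the second of its 3 listed starts: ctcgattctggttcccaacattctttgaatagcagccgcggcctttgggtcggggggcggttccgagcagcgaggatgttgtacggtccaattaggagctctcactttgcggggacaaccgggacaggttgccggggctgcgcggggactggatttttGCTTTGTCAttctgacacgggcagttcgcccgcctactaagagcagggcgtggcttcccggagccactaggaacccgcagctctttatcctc
The searched windows were 300 bases long and ran 50 bases past the start. In Gclm the core lay on the opposite strand, with its first base in this reading 134 bases before the start. In Txnrd1 it lay 92 bases before this start, also on the opposite strand, and the windows of the other Txnrd1 starts held none. Nfe2l2 and Srxn1 held 1 match each, so that 4 of 7 members had the core, as did 14% of 27025 genes with a window. Slc7a11 held no such core but TGATGCAA on both strands, 66 and 47 bases before the start; 0.895% of 32851 windows held that motif. GAAANNGAA, most of the interferon-stimulated response element, was on neither strand of any member's window and in 8.56% of all windows. TGANTCA, the AP-1 site, which can overlap the antioxidant core, occurred 2 times in Srxn1, in no other member and in 7.81% of windows. A match is only a match of letters, and no match says only that these letters are not in this window.

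Some features of the libraries bear on all values. Barcodes counted as cells from 300 genes upward when no more than 20% of their UMIs were mitochondrial, and 6443 of 12848 such cells carried a barcode that was also listed in another table of the same date stamp, against 91 with a barcode of the other date. In control 2, 75.5% of UMIs lay in barcodes better covered in a CYR61 library. The share better covered in the opposite group was 0.448% to 25.1% in the other 7 libraries. Among libraries of a date, each barcode was therefore kept in the 1 with most of its UMIs. These home-library cells numbered 9196, with 294 to 3604 cells and 842528 to 13933610 UMIs per library and a median of 789 to 1595 UMIs per cell. Replicates 1 and 2 of both groups carry the earlier date stamp and replicates 3 and 4 the later one. Against the male labels, Xist, the RNA that silences an X chromosome in female cells, stood at 1152 to 1249 CPM in control 2, control 3, CYR61 1 and CYR61 2, where Y-linked genes summed to 8.40 to 20.4 CPM. In control 1, control 4, CYR61 3 and CYR61 4, Xist was at most 1.16 CPM and Y-linked genes summed to 365 to 445 CPM. The first 4 are called Xist libraries below; they are a split seen in the data and not a group of the study. Macrophage markers were present in every library, with Csf1r at 319 to 529 CPM and Adgre1 at 452 to 656 CPM, while T and NK cell markers summed to at most 1.65 CPM.

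Gclc was the member that differed most between control and CYR61 libraries. Gclc (chromosome 9, 77754535 to 77794485, mm10), the catalytic and rate-limiting subunit, stood at 85.3, 100.2, 110.4 and 108.7 CPM in control libraries 1 to 4 and at 49.3, 53.6, 40.0 and 58.3 CPM in CYR61 libraries 1 to 4. All CYR61 libraries were below all control libraries, and the means were 101 ± 11.5 and 50.3 ± 7.77 CPM (SD, n = 4), a ratio of 0.497. The counts behind these values were 46 to 747 UMIs per library. The level with CYR61 was lower both among Xist libraries (105 CPM in control, 51.5 CPM in CYR61, n = 2) and among the others (97.0 and 49.2 CPM, n = 2). In all kept cells, before the barcode rule, the groups were also apart, at 84.3 ± 10.7 and 54.2 ± 4.26 CPM.

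Hmox1 and Nfe2l2 were the other members whose groups did not overlap. Hmox1 (chromosome 8, 75093621 to 75100589), which encodes haem oxygenase 1 and releases iron and biliverdin from haem, was at 466, 467, 402 and 413 CPM in control and at 286, 312, 305 and 318 CPM with CYR61 (437 ± 34.3 and 305 ± 13.9, SD, n = 4, ratio 0.698). Nfe2l2 (chromosome 2, 75675513 to 75704641), the factor itself, ran the other way, at 305, 321, 284 and 294 CPM in control and 336, 340, 359 and 336 CPM with CYR61 (301 ± 15.9 and 343 ± 11.2, ratio 1.14). Among the 10422 genes tested, 5.12% had groups that did not overlap, 2.25% lower and 2.87% higher with CYR61. Since this contrast chose the members, nothing is read from 3 of 10. CPM is a share of a library's RNA, and in libraries summed over cells fewer cells of a type and less RNA per cell cannot be told apart.

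**Figure D1:**
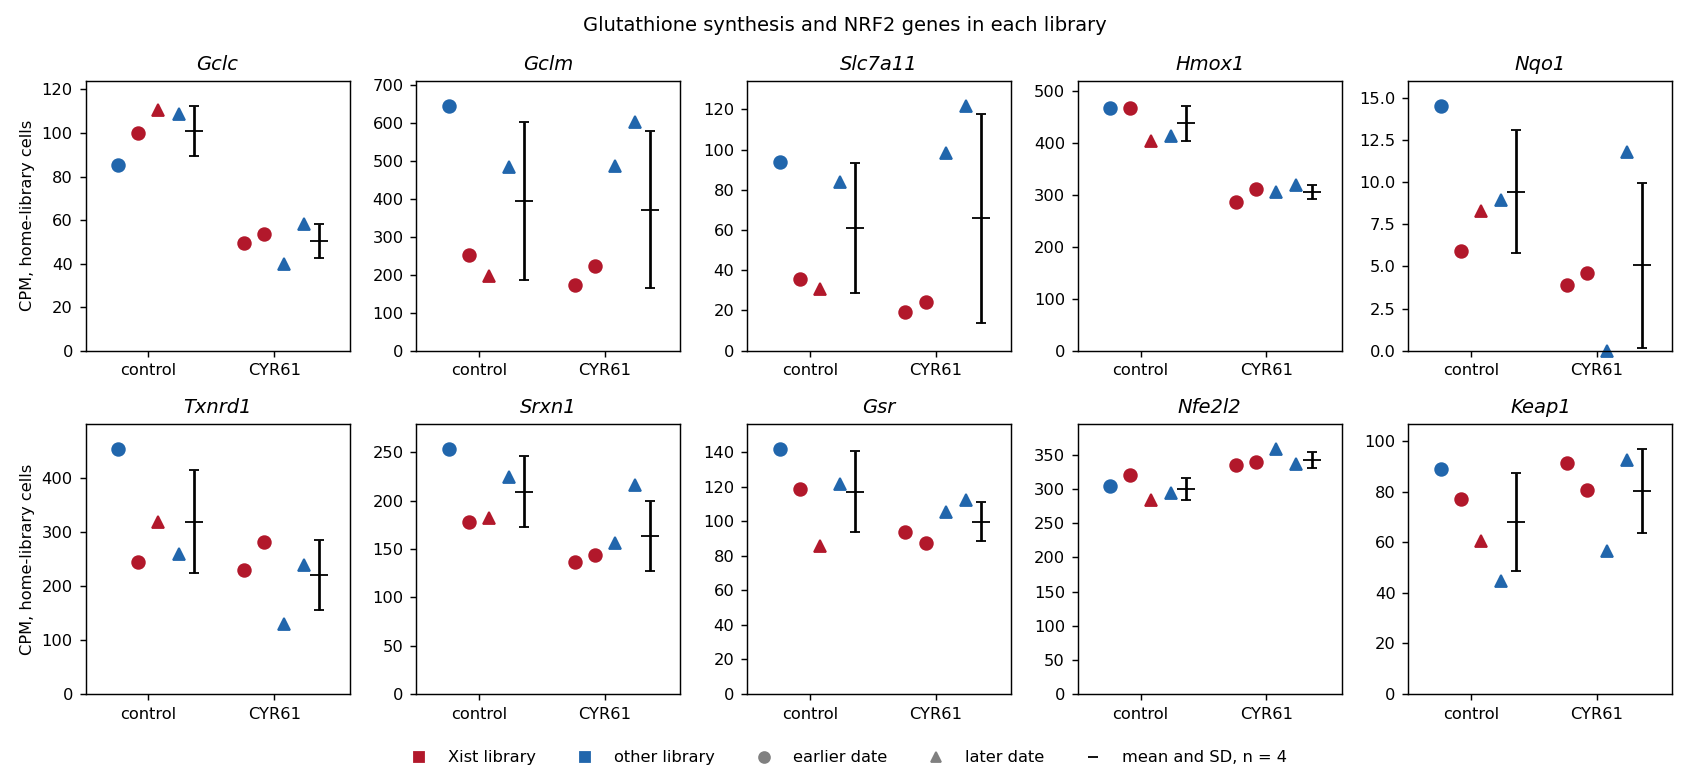
Level of each of the 10 genes in home-library cells, in CPM on axes that start at 0, with 1 point per library (red, Xist libraries; blue, the others; circles, earlier date; triangles, later date) and the mean with SD of each group of 4. Gclc and Hmox1 are lower in every CYR61 library whatever the colour, while Gclm and Slc7a11 are low in the red libraries of both groups.

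The remaining members overlapped between the groups. Gclm (chromosome 3, 122245557 to 122270732), the modifier subunit that makes the ligase efficient, was at 646, 251, 196 and 485 CPM in control and at 173, 223, 487 and 604 CPM with CYR61, and Slc7a11 (chromosome 3, 49892526 to 50443614) at 93.7, 35.7, 30.9 and 83.8 CPM and at 19.5, 24.0, 98.3 and 121.9 CPM. Both were high in libraries 1 and 4 of control and 3 and 4 of CYR61, and low in the others. Txnrd1 (chromosome 10, 82833951 to 82897712), which reduces thioredoxin, was at 454, 244, 318 and 259 CPM in control and at 229, 282, 129 and 239 CPM with CYR61. Its highest value was control 1 and its lowest CYR61 3. Srxn1 (chromosome 2, 152105516 to 152111376), which repairs oxidised peroxiredoxins, stood at 209 ± 36.4 and 163 ± 36.2 CPM (SD, n = 4). Gsr (chromosome 8, 33652523 to 33698163) stood at 117 ± 23.4 and 99.8 ± 11.3 CPM, and Keap1 (chromosome 9, 21229730 to 21239361) at 67.9 ± 19.3 and 80.3 ± 16.7 CPM. Nqo1 (chromosome 8, 107388225 to 107403206), a quinone reductase often used as a readout of NRF2, was barely detected: 212 UMIs in all, at 5.94 to 14.5 CPM in control and 0 to 11.8 CPM with CYR61. It had no UMI in CYR61 3, where a count of 0 allows up to 2.61 CPM, by counting error alone.

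On the log2 scale of the edgeR fit, the change with CYR61 was -0.96 (SE 0.20) for Gclc, -0.49 (0.14) for Hmox1, -0.50 (0.26) for Txnrd1, -0.34 (0.20) for Srxn1 and -0.21 (0.19) for Gsr. It was -0.83 (0.70) for Nqo1, -0.07 (0.43) for Gclm and 0.08 (0.57) for Slc7a11, and 0.22 (0.14) for Nfe2l2 and 0.28 (0.23) for Keap1. The errors of Gclm and Slc7a11 were wide, with libraries of the same group far apart. These values are given with their errors and without a test. Over 21 other settings the value of Gclc ran from -1.33, in cells with strictly private barcodes, to -0.64, in all kept cells, and that of Hmox1 from -0.52 to -0.36. For Gclc it was between -1.06 and -0.82 with 1 library left out, -0.71 in libraries of the earlier date and -1.17 in those of the later. Nfe2l2 was at -0.02 in the private cells, so it was not higher with CYR61 there. B cell markers moved with the groups too, summing to 8.97 to 36.8 CPM in control and 2.61 to 6.57 CPM with CYR61. Most of this was 1 gene, Ighm, at 8.97 to 35.6 CPM in control and 1.74 to 4.80 CPM with CYR61. Macrophage markers summed to 8895 to 13124 CPM in control and 11522 to 15954 CPM with CYR61, with 2 of 10 called. The part of either list in these values was not tested.

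Measured as log2(CPM + 1) against the mean of the other 9 genes, Gclc lay at -1.06, -0.20, 0.04 and -0.32 in control libraries 1 to 4 and at -0.87, -0.87, -1.22 and -1.40 in CYR61 libraries 1 to 4. These groups overlapped: control 1, where Gclm, Slc7a11, Txnrd1 and Nqo1 were high, lay among the CYR61 libraries. The ratio of Gclm to Gclc, the modifier and catalytic subunits of the same enzyme, was 7.57, 2.51, 1.77 and 4.46 in control and 3.52, 4.15, 12.2 and 10.4 with CYR61, in CPM not corrected for gene length. It was highest in CYR61 3 and CYR61 4 and lowest in control 3, and the groups overlapped.

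The pattern of Gclc over the 8 libraries was unlike that of Gclm. Over these libraries, which share dates and barcodes, the Pearson correlation of log2(CPM + 1) between Gclc and Gclm was -0.02, and that between Gclc and Slc7a11 was -0.01. Gclc followed Hmox1 (r = 0.88) and ran against Nfe2l2 (r = -0.92), as the group difference of each implies. Among 6536 genes with a mean of at least 20 CPM, the 5 most like Gclc were Dgkz (r = 0.99, rho = 0.98), Parl (0.95, 0.90), Niban2 (0.95, 0.90), Dnttip1 (0.94, 0.98) and Mvb12b (0.94, 0.88). Dgkz, a diacylglycerol kinase, was at 157 ± 11.1 CPM in control and 109 ± 11.5 CPM with CYR61. Niban2 was at 291 ± 8.87 and 183 ± 29.0 CPM. For Gclm, a reference added after its values were seen, the most like genes were Optn, Taldo1, Slc7a11, Hpse and Ninj1, with r from 0.97 to 0.98, and Taldo1 encodes an enzyme of the pentose phosphate pathway. Slc7a11 was thus 1 of the 5 among all 6536 genes.

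Gclm and Slc7a11 differed between the Xist libraries and the others in both groups. Gclm was at 211 ± 33.7 CPM in the 4 Xist libraries and 555 ± 81.9 CPM in the other 4, a ratio of 2.63, and Slc7a11 at 27.5 ± 7.18 and 99.4 ± 16.2 CPM, a ratio of 3.61. The highest Xist library was below the lowest of the others for both genes, as was so for 8.88% of the 10910 genes tested. The means were 224 and 565 CPM for Gclm in control and 198 and 545 CPM with CYR61, and 33.3 and 88.7 CPM for Slc7a11 in control and 21.8 and 110.1 CPM with CYR61 (n = 2 each). The contrast is independent of the one that chose the members, but its fit, with the CYR61 term beside the Xist term, was added after the values per library had been seen.

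In that edgeR fit 3 of 10 members were called (Benjamini-Hochberg adjusted p under 0.05), all lower in Xist libraries, where 14.7% of all genes were called, 7.23% lower. Gclm differed by -1.41 (SE 0.14, adjusted p = 2.33e-05), Slc7a11 by -1.96 (SE 0.21, adjusted p = 5.31e-05) and Srxn1 by -0.43 (SE 0.14, adjusted p = 0.0465). By p, Gclm ranked 19 and Slc7a11 29 of 10910. Both were called in all 14 other settings, among them control libraries alone, CYR61 libraries alone, and a fit with a date term, whereas Srxn1 was called in 3 of 14 and in 1 of the 8 fits that left out a library. Gsr differed by -0.33 (SE 0.14, adjusted p = 0.144). Gclc differed by 0.07 (SE 0.18), Hmox1 by -0.05 (SE 0.11), Txnrd1 by 0.05 (SE 0.23) and Nqo1 by -0.71 (SE 0.64), none of them called. Nfe2l2 (-0.03, SE 0.11) and Keap1 (0.09, SE 0.21) were not called either. The median of the 10 was -0.19, and that of all genes tested -0.01.

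**Figure D2:**
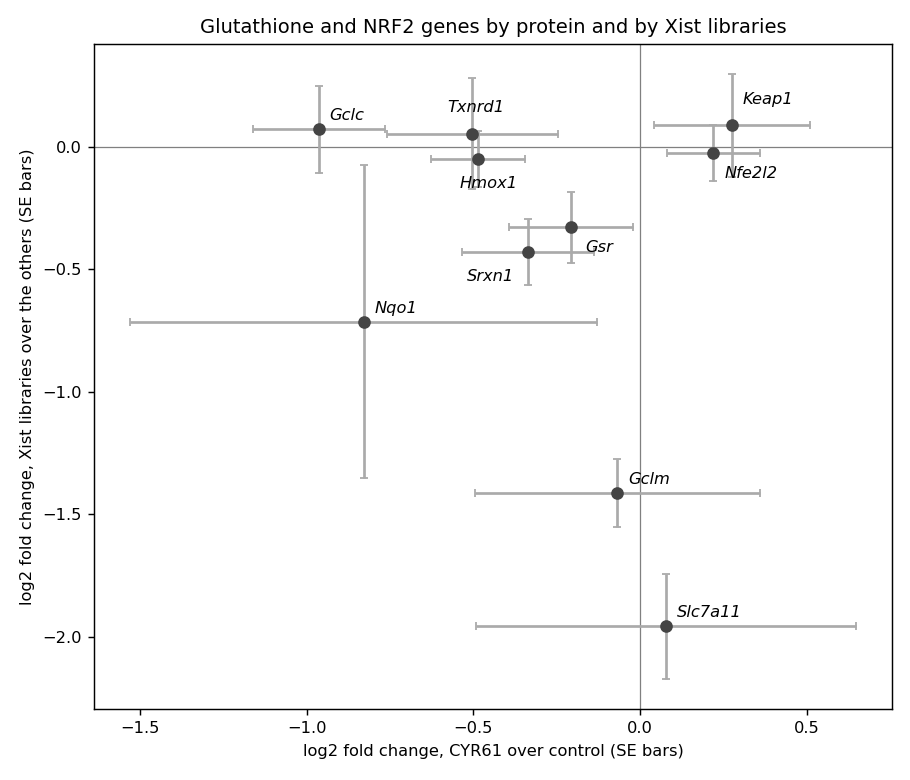
Log2 fold change of each gene with CYR61 (horizontal axis) against that of Xist libraries over the other libraries (vertical axis), with bars for the SE of each fit. Gclc and Hmox1 lie left of 0 at a height near 0, and Gclm and Slc7a11 lie at -1.41 and -1.96 on the vertical axis near 0 on the horizontal one.

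Other measures moved with the same split. Of 36 tested cell cycle genes, 23 were higher in Xist libraries (median difference 1.64), and of 37 interferon genes 10 were lower and 1 higher. Neutrophil markers summed to 286 to 1301 CPM in Xist libraries and 994 to 2793 CPM in the others, with 5 of 7 tested called, and macrophage markers to 8895 to 12210 and 12019 to 15954 CPM, with 5 of 10 called. Megakaryocyte or platelet markers summed to 372 to 709 CPM in Xist libraries and 756 to 1359 CPM in the others, without overlap, with 1 called. Of the 1608 called genes, 58 lay on chromosome X or Y and 1521 on other chromosomes. In the 10 of every 30 cells of a library with the lowest cell cycle score, Gclm was at 165 to 304 CPM in Xist libraries and 430 to 624 CPM in the others, and Slc7a11 at 17.2 to 31.1 and 63.6 to 141 CPM. The part of the cell cycle, neutrophil, macrophage and megakaryocyte or platelet genes in the difference was not tested. Among CYR61 libraries the Xist libraries are also those of the earlier date, so there Xist and date cannot be told apart; each date has 1 control library of each kind.

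The other genes of the pathway were read from 6 lists of 114 genes in all. With CYR61, edgeR called 0 of the 90 that could be tested, beside 1.16% of all genes, 1.12% higher and 0.0384% lower. DESeq2 called 0 too, and 3 had an unadjusted edgeR p under 0.05. Their median change was -0.01, and that of all genes -0.02. Fth1, the heavy chain of the iron store ferritin and an NRF2 target, was at 11259 ± 5179 CPM in control and 12443 ± 5854 CPM with CYR61. Gpx1, the main cytosolic glutathione peroxidase, was at 1053 ± 137 and 1037 ± 51.2 CPM, and Prdx1, a peroxiredoxin, at 1341 ± 104 and 1185 ± 480 CPM (SD, n = 4). Among regulators, Cul3, the ubiquitin ligase scaffold that works with KEAP1, changed by 0.05 (SE 0.15) and Nfe2l1, a relative of NRF2, by 0.13 (SE 0.19), neither called.

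Between Xist libraries and the others, 22 of 92 tested pathway genes were lower (23.9%, where 7.23% of all genes were) and 2 were higher, and the median difference was -0.29. In glutathione synthesis and use, 4 of 20 were lower: Gss, which adds glycine to complete glutathione (15.0 ± 4.45 against 35.8 ± 3.45 CPM, -1.28), the glutathione transferases Gstm1 (127 ± 6.60 against 284 ± 15.6 CPM, -1.18) and Gstm2 (-1.77), and the secreted peroxidase Gpx3 (-2.01). Of 21 thioredoxin, peroxiredoxin and other antioxidant genes 6 were lower and 1 higher. Prdx6, a peroxiredoxin that also acts on phospholipids, was at 67.5 ± 10.1 CPM in Xist libraries and 268 ± 28.2 CPM in the others. Prdx5 (-1.14), Txn1, or thioredoxin (-0.84), and Cat, or catalase (-0.74), were lower as well, while Sesn1, a p53-responsive sestrin, was higher (211 ± 15.6 against 73.8 ± 16.9 CPM, 1.54). In the list of NADPH supply and the pentose phosphate pathway 3 of 8 were lower: Pgd (-0.82), which makes NADPH, and Taldo1 (-0.92) and Tkt (-0.45), enzymes of the non-oxidative branch.

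Of 20 further NRF2 targets, 7 were lower in Xist libraries. The ferritin chains Fth1 (7562 ± 556 against 16141 ± 3557 CPM, -1.11) and Ftl1 (1761 ± 84.5 against 3230 ± 493 CPM, -0.89) were among them, with the biliverdin reductase Blvrb (-0.87) and the esterase Esd (-1.05). Among 14 genes that control NRF2, Mafg, a small MAF partner, was the 1 called (141 ± 28.5 against 204 ± 18.6 CPM, -0.56). The amino acid response list, whose factor ATF4 also acts on Slc7a11, went both ways: of 10 tested, Ddit3 was lower (-0.96) and Psat1, an enzyme of serine synthesis, higher (1.16). These differences are log2 values from the edgeR fit with Benjamini-Hochberg adjusted p from 8.56e-07 for Prdx6 to 0.0331 for Tkt. In control libraries alone 7 of 82 pathway genes were called, 6 lower and 1 higher, beside 140 of all 9201 genes tested. In CYR61 libraries alone 41 of 97 were called, 35 lower and 6 higher, beside 2554 of all 12352 genes tested. The cell cycle, neutrophil, macrophage and megakaryocyte or platelet values above move with these genes too, and their part was not tested.

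**Figure D3:**
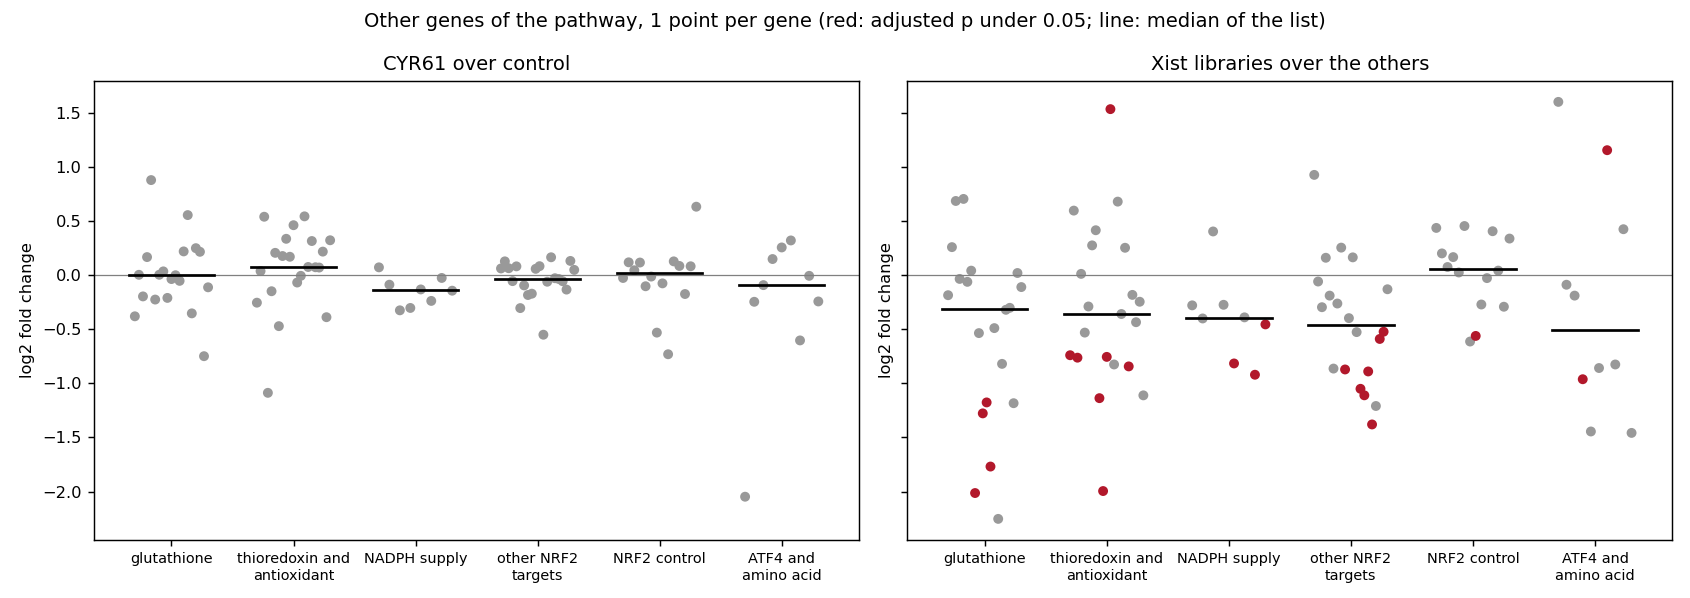
Log2 fold change of each tested gene of the 6 pathway lists, with CYR61 on the left and in Xist libraries over the others on the right; red points have an adjusted p under 0.05 and lines are list medians. No point is red on the left, and 24 are red on the right, 22 of them below 0.

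The date stamps of the tables gave no called member. With the CYR61 term in the fit, 0 of 10 passed between later and earlier date, where 0.0183% of 10910 genes (2) were called; 1347 genes had an unadjusted p under 0.05, and DESeq2 called 159 genes. Slc7a11 had the lowest p of the 10, with 1.18 (SE 0.52, adjusted p = 0.391), and it was called in 2 of 11 other settings, those with no gene filter (1.04) and without control 3 (1.63). The effect of CYR61 by date was tested as an interaction, which called 0% of 11665 genes (1150 at an unadjusted p under 0.05; DESeq2 called 44) and no member. Slc7a11 changed by -1.52 at the earlier date and 0.90 at the later one (interaction 2.42, SE 0.69, adjusted p = 0.404) and Gclm by -1.09 and 0.65 (interaction 1.75, SE 0.66, adjusted p = 0.456). Both interactions passed with no gene filter, and that of Slc7a11 also without control 4 (3.35, adjusted p = 0.0360). CYR61 1 and CYR61 2, of the earlier date, are Xist libraries and CYR61 3 and CYR61 4, of the later date, are not. The part of the Xist split in the opposite signs of both genes was not tested. The interaction was -0.42 (SE 0.37) for Gclc, 0.12 (SE 0.28) for Hmox1 and 0.02 (SE 0.28) for Nfe2l2, whose changes had the same sign at both dates.

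Cells of the same library were compared next, a contrast within the library that did not choose the members. Of 37 interferon-stimulated genes, which antiviral signalling switches on, 36 were higher with CYR61 (median log2 change 3.21), and cells of each CYR61 library were ranked by their share of UMIs from these genes within blocks of 30 cells of like depth. The top 10 of each block were summed as interferon-high and the bottom 10 as interferon-low, 159 to 1200 cells each per library, with median depths of 802 to 1592 and 810 to 1591 UMIs. These are ranges of a score, not cell types: 93 to 734 cells per library lay within 10% of the upper limit.

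Txnrd1 was lower in interferon-high cells in each of the 4 CYR61 libraries. It was at 180, 252, 80.2 and 206 CPM in interferon-high cells and at 268, 326, 135 and 292 CPM in interferon-low cells of CYR61 libraries 1 to 4, from 30 to 1502 UMIs. The difference was -0.47 (SE 0.08, edgeR adjusted p = 0.00122), and Txnrd1 was the 1 member of 10 called, where 2.42% of 10922 genes were called and 0.568% were called lower. It was called in 6 of 7 other settings, DESeq2 included, and was not called without CYR61 1 (-0.44, adjusted p = 0.129). Slc7a11 was lower in 4 of 4 libraries (59.7 ± 50.1 against 79.5 ± 59.4 CPM, -0.53, SE 0.15, adjusted p = 0.0800) and so was Gclm (344 ± 196 against 428 ± 250 CPM, -0.27, SE 0.07, adjusted p = 0.0566), but neither was called. Gclc was lower in 3 of 4, at 37.0, 41.0, 40.1 and 59.9 CPM in interferon-high and 63.2, 67.5, 46.7 and 54.0 CPM in interferon-low cells (-0.50, SE 0.16, adjusted p = 0.175). Keap1 was higher in 4 of 4 libraries (91.1 ± 24.5 against 70.4 ± 18.1 CPM, 0.34, SE 0.11, adjusted p = 0.188), and so was Nfe2l2 (360 ± 21.2 against 321 ± 15.6 CPM, 0.15, SE 0.07), neither called.

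**Figure D4:**
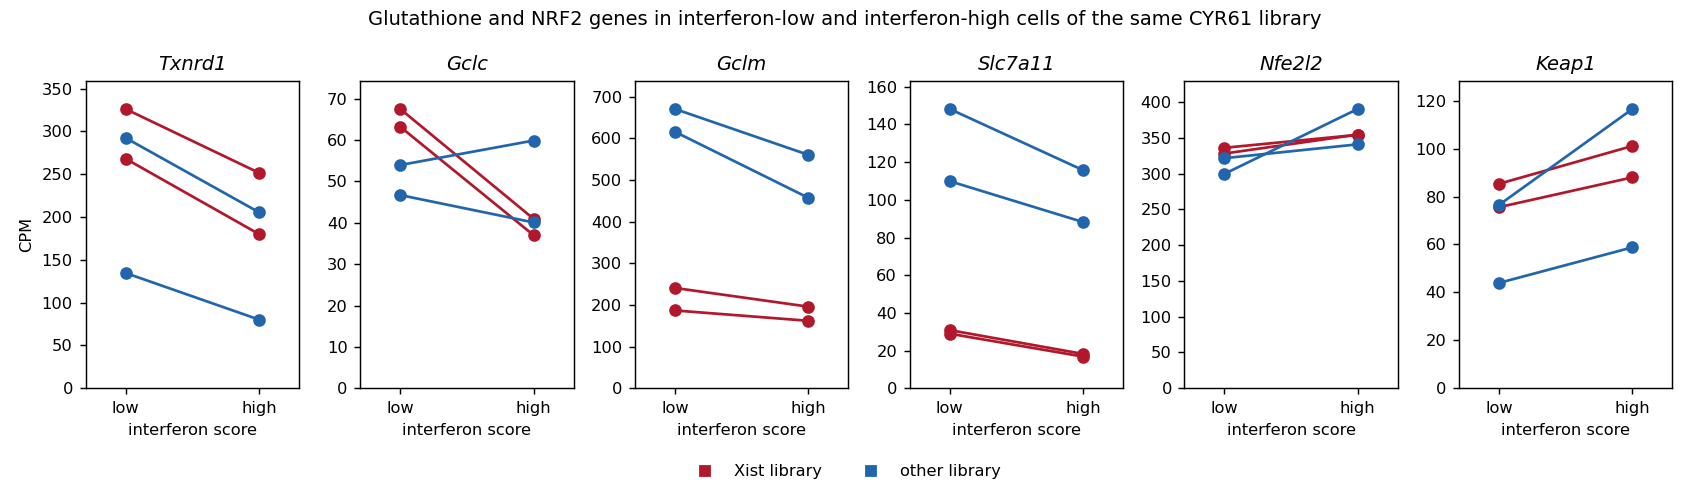
Level in CPM, on axes that start at 0, of 6 members in interferon-low and interferon-high cells, with a line for each of the 4 CYR61 libraries (red, Xist libraries; blue, the others). Txnrd1, Gclm and Slc7a11 are lower in interferon-high cells on all 4 lines, Gclc on 3, and Nfe2l2 and Keap1 are higher on all 4.

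Over the 10 members, 8 fits had a negative sign and the median was -0.23, against -0.02 for all genes tested. The calls depended on the libraries used: edgeR called 264 of 10922 genes, and 90, 106 and 142 without CYR61 1, 2 and 4. Without CYR61 3 it called 525 of 10881 genes, 195 of them lower. CYR61 3 was the shallowest of these libraries, with 374120 UMIs in its interferon-high cells, and the part of depth was not tested. In the fit without CYR61 3, Gclc (-0.54, adjusted p = 0.0102), Gclm (-0.24, adjusted p = 0.0140), Slc7a11 (-0.56, adjusted p = 0.00980), Hmox1 (-0.23, adjusted p = 0.0210) and Keap1 (0.33, adjusted p = 0.0464) were called besides Txnrd1. Among other pathway genes edgeR called 0 of 94 (9 had an unadjusted p under 0.05) and DESeq2 called 0 as well. Without CYR61 3 edgeR called 4 of 92, all lower, and with no gene filter 1 of 111, also lower. Gstm1 was the lowest of those most expressed in the glutathione list, at -0.28 (SE 0.09, adjusted p = 0.134), while Gpx1 (-0.04, SE 0.06), Txn1 (-0.07, SE 0.06) and Taldo1 (0.04, SE 0.07) lay near 0. Cell cycle genes moved with the score, 9 of 36 lower in interferon-high cells (median -0.52), and 5 of 11 inflammatory genes were higher; their part was not tested.

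Interferon-low is a rank within a CYR61 library and not a level like that of control. The interferon genes made up 0.305% to 0.672% of UMIs in interferon-low cells of CYR61 libraries, and 0.181% to 0.215% in the highest-scoring cells of control libraries, ranked in the same way.

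The inflammatory score, built from 15 cytokine, chemokine and enzyme genes, gave no called member, where 0.367% of 10905 genes were called; 734 genes had an unadjusted p under 0.05, and DESeq2 called 14 genes. No member was called in the 7 other settings either. Gclc had the sign opposite to that in interferon-high cells, 0.32 (SE 0.14, adjusted p = 0.682), at 54.6, 56.4, 24.3 and 72.6 CPM in inflammatory-high and 38.7, 53.2, 32.8 and 42.3 CPM in inflammatory-low cells. The difference between the scores was not tested. Gclm was lower in 4 of 4 libraries (-0.14, SE 0.06, adjusted p = 0.721). Of the pathway lists, Sod2, the mitochondrial superoxide dismutase, was higher (0.46, SE 0.10, adjusted p = 0.0322) and Idh1, a cytosolic source of NADPH, lower (-0.29, SE 0.06, adjusted p = 0.0277), but DESeq2 called neither, and edgeR called none of the pathway genes without CYR61 1, 2 or 4. Most inflammatory-low cells held no UMI of the list (148 of 159 in CYR61 3). Nor did part of the inflammatory-high cells, 54 of 159 in CYR61 3 and 239 of 1200 in CYR61 2. Such cells were ranked at random among ties, so this score separates cells weakly.

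Cell cycle scores were compared in all 8 libraries. Some cycling-high cells held no UMI of the list, most of all 24 of 159 in CYR61 3 and 62 of 345 in CYR61 4. No member was called, where 5.51% of 9818 genes were, although Gsr was higher in cycling-high cells in 8 of 8 libraries (116 ± 19.8 against 99.5 ± 20.2 CPM, 0.14, SE 0.11, adjusted p = 0.640). Txnrd1 was higher in 7 of 8 (302 ± 110 against 229 ± 89.5 CPM, 0.27, SE 0.10, adjusted p = 0.144), and it passed only without CYR61 4 (0.36, adjusted p = 0.0461). Slc7a11 was lower in cycling-high cells in 4 of 8 libraries and higher in the other 4 (54.1 ± 32.7 against 60.2 ± 43.0 CPM). Its difference in the fit was -0.48 (SE 0.17, adjusted p = 0.103), and it was called without control 2 (-0.56) or without CYR61 3 (-0.55). Gclm was at 0.01 (SE 0.08), with 394 ± 175 CPM in cycling-high and 376 ± 187 CPM in cycling-low cells. Among the lists, Mgst1, a microsomal glutathione transferase (-0.40, adjusted p = 0.00117), Gstm1 (-0.31, adjusted p = 0.0381), Msrb1, a methionine sulfoxide reductase (-0.32, adjusted p = 0.0465), and Fth1 (-0.26) were lower in cycling-high cells. Glrx, a glutaredoxin, was higher (0.65, adjusted p = 0.0484), as was Palb2, a DNA repair protein that also binds KEAP1 (1.40, adjusted p = 0.00187). Palb2 was scarce, at 4.75 to 14.4 CPM in whole control libraries and 6.09 to 11.3 CPM in whole CYR61 libraries. These 6 were 6.9% of the 87 pathway genes tested, near the 5.51% of all genes. With 1 library left out, edgeR called 1 to 5 pathway genes in place of 6.

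**Figure D5:**
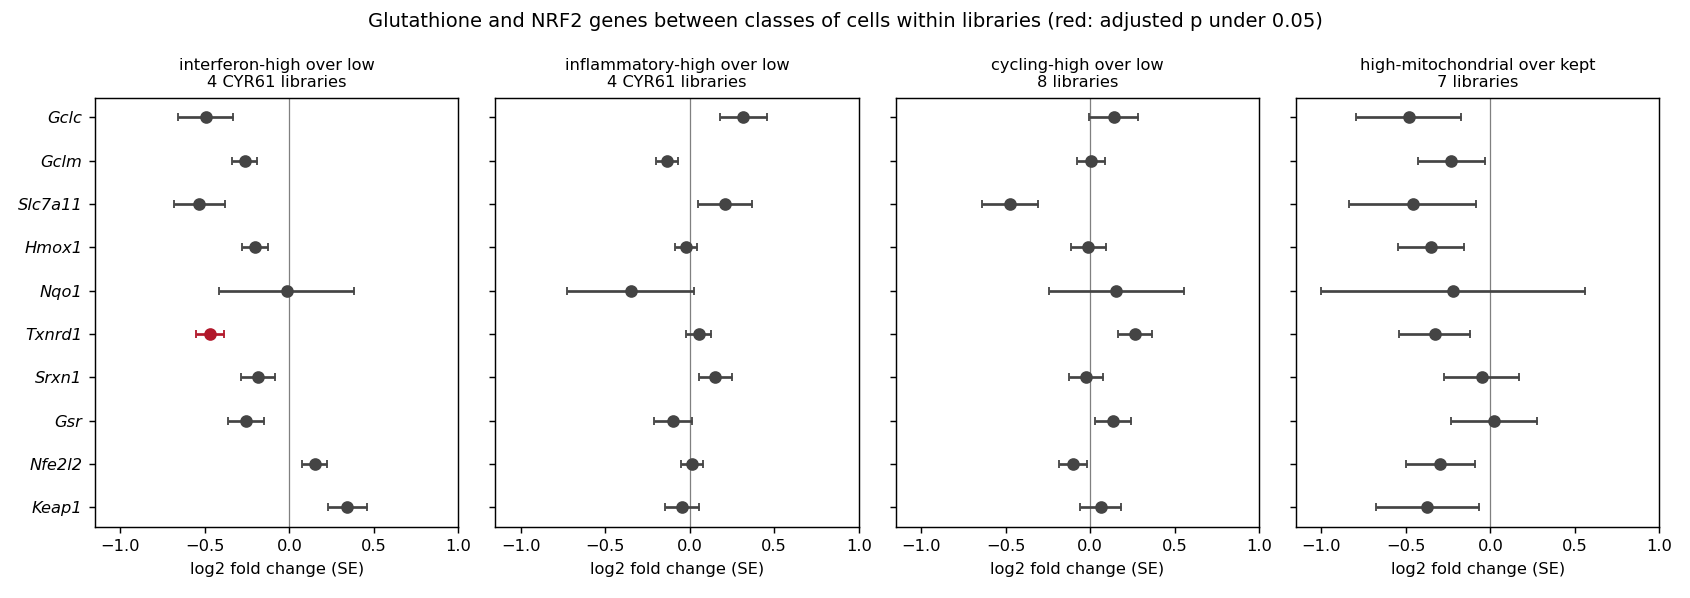
Log2 fold change with SE of each gene between classes of cells within libraries, for the interferon, inflammatory and cell cycle scores and for high-mitochondrial barcodes. Txnrd1 in the interferon panel, at -0.47, is the 1 red point, with an adjusted p under 0.05; bars of Nqo1 are the widest in each panel.

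Barcodes above 20% mitochondrial UMIs, often damaged cells, were left out above and numbered 1021 in home libraries. Against the kept cells of the same library, in the 7 libraries with at least 10 on each side, no member was called, where 0.214% of 8858 genes were (698 at an unadjusted p under 0.05; DESeq2 called 32), nor in the 10 other settings. The sign was negative for 9 of 10, with a median of -0.31, and the median of all genes was -0.15. Gclc was at 50.8 ± 68.2 and 87.2 ± 29.5 CPM (SD, n = 7; -0.48, SE 0.31, adjusted p = 0.730). Its level in high-mitochondrial barcodes rests on 0 to 21 UMIs per library. The ferritin chains were higher there, Fth1 by 0.75 (adjusted p = 1.48e-07) and Ftl1 by 0.64 (adjusted p = 0.00341).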

How the data were processed

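The authors deposited 1 table of UMI counts per library, genes by cell barcode, on the genome build mm10 per the submitters' processing notes. For the aligner, counter, annotation and cell calling, the tool is not given in the sources used here. Each of the 8 tables lists 5000 barcodes, with 1379637 to 16318946 UMIs. Groups and replicate numbers are from the labels, date stamps from the deposited tables' names. The members, gene lists and tests were chosen with earlier results of these data known.

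Home-library cells and score classes are defined in the report. No doublet caller was run and none were removed. Counts were summed per library, or per library and class of cells, and tested across all genes with edgeR 4.0.16 in R 4.3.3 (TMM, filterByExpr, quasi-likelihood test, Benjamini-Hochberg threshold 0.05). Fits within libraries had the library as a block. SE is the size of the log2 fold change over the square root of F. Both designs were run on simulated counts with 200 changed genes. Their power to find the smaller differences reported here was not tested. DESeq2 1.42.0 and other filters, normalizations, cells, covariates and left-out libraries were the alternatives. CPM is the UMI count per 1000000 summed UMIs, with mitochondrial genes left out of the sums in the high-mitochondrial comparison.

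Named are the members, up to 4 called genes per list and direction with the smallest p, or the 3 most expressed where none was called, and the 5 genes most like Gclc. Positions are from GENCODE vM21, promoter windows from RefSeq (GRCm38.p6). Of the lists, 1 NRF2 target and 1 amino acid response gene were not in the tables. A floor of 3 counts was used for a count of 0. Python 3.11.15, numpy 2.4.6 and pandas 2.3.3 were used.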

Additional observations from a re-analysis of the deposited data

Results flagged for a closer look

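CYR61 3 stood apart from the other CYR61 libraries in Nfe2l2. Its level there was 359 CPM in home-library cells, and the other 3 CYR61 libraries lay between 336 and 340 CPM. Its gap to the nearest was 0.845 of the whole range, above the 95% limit of Dixon's test for 4 samples. Of 20 groups tested in this way this was the 1 that passed, and chance passes about 1 in 20.

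Gclm and Slc7a11 went opposite ways with CYR61 at the 2 date stamps. For Gclm the log2 change was -1.09 at the earlier date, where both CYR61 libraries lay below both control libraries. It was 0.65 at the later date, where both lay above, though CYR61 3 (487 CPM) and control 4 (485 CPM) were nearly equal. For Slc7a11 the change was -1.52 and 0.90, with the same order of libraries (98.3 CPM in CYR61 3, 83.8 CPM in control 4). The interaction term did not pass over all genes (edgeR adjusted p = 0.456 for Gclm and 0.404 for Slc7a11). CYR61 1 and CYR61 2 are Xist libraries and of the earlier date, CYR61 3 and CYR61 4 are neither, so date and Xist cannot be told apart among CYR61 libraries.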

How the results depend on the processing

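With CYR61, 121 genes were called, and 183 with DESeq2 (158 higher, 25 lower), 239 with no gene filter (208 and 31), 236 with the Xist block (206 and 30), 328 with Xist block and date term, added after seeing the data (281 and 47), and 0 in all kept cells; leaving out 1 library gave 74 to 127, the lowest without CYR61 4. Deviations from the group mean correlated at -0.20, 0.33, -0.09 and 0.32 between libraries of the same replicate number, for replicates 1 to 4. The positive values were those of libraries alike in Xist, so the correlations cannot tell if the numbers pair libraries. With a replicate block 117 genes were called and the change of Gclc was -0.90. The effect by date called 0 genes, 44 with DESeq2, 180 with no gene filter and 0 to 345 with 1 library left out, the highest without control 4. Between dates 2 were called, 159 with DESeq2, 304 with no gene filter, 0 with the Xist block and 0 to 725 with 1 library left out, the highest without control 3.

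Between Xist libraries and the others, a fit added after seeing the data, 1608 were called, 874 with a date term, 2887 in all kept cells, 140 in control and 2554 in CYR61 libraries alone, and 777 to 1689 with 1 library left out. By interferon score 264 were called, 142 with DESeq2 and 90 to 525 with 1 left out, the highest without CYR61 3. By inflammatory score 40 were called, 14 with DESeq2, 87 with no gene filter, 71 with upper against lower cells split at the middle and 13 to 68 with 1 left out. By cell cycle score 541 were called, and 260 to 589 with 1 left out, the lowest without CYR61 1. High-mitochondrial barcodes gave 19 genes, 32 with DESeq2, 74 with no gene filter, 12 for barcodes above 30% against those at most 10% in the 3 libraries with 10 or more, and 12 to 25 with 1 left out, the lowest without control 4. The cause of each shift was not tested. Depth limits Nqo1 (0 to 64 UMIs per library) most, then Slc7a11 (26 to 456) and Gclc (46 to 747). The limit given for a count of 0 covers counting error alone, while each SE also includes the spread between libraries.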
